A study of Mus musculus with 4 samples.

Results

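Transcripts of 10 genes of type 2 immunity were followed through the cells of mouse lung tumors: Il4, Il5, Il13 and Il6, which encode secreted cytokines; Hdc, the enzyme that makes histamine; Il4ra and Il13ra1, receptor chains; and Retnla, Arg1 and Ccl24, genes commonly read as responses to IL-4 and IL-13. They were taken by symbol from the 31055 features of 1 deposited table, and all 10 were present. The table joined single-cell libraries of viable cells, sorted as DAPI-negative, from microdissected tumors of 4 female mice, with no age in the labels. All mice carried Lkb1XTR/XTR, a gene trap in the tumor suppressor gene Lkb1 that Cre switches on. Rosa26LSL-tdTomato, a red reporter that depends on Cre, was also shared by all mice. The 2 Restored mice also carried FLPo-ERT2, a recombinase that removes the trap once tamoxifen is given, and the 2 Non-Restored mice lacked it. Tumors were started with lentiviral Cre, which is not restricted to one epithelial cell type, and had grown for 16 weeks; every mouse, controls included, was given 4 mg doses of tamoxifen during 2 weeks before harvest. No file tied a cell to its mouse, so the table was 1 sample, the 2 groups could not be compared, no test was run, and any class of cells may have come mostly from 1 mouse.

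In type 2 immunity, damaged epithelium releases alarmins such as IL-33, and basophils, mast cells, group 2 innate lymphoid cells (ILC2) and Th2 cells answer with IL-4, IL-5 and IL-13. IL-4 and IL-13 share the chain IL-4Rα: paired with the common gamma chain (Il2rg) it binds IL-4 on lymphocytes, and paired with IL-13Rα1 it binds both cytokines on myeloid and non-hematopoietic cells. Both receptors act through JAK kinases and STAT6, and in macrophages, genes such as Retnla, Arg1 and Ccl24 are widely used to mark the response.

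Il4, Il13 and Il5 lie close together on chromosome 11. In the GENCODE annotation of mm10 (GRCm38), Il4 occupied chr11:53602982-53618669 and Il13 chr11:53631324-53634702, both on the minus strand with 12655 bases between them. Il5 stood on the plus strand at chr11:53720794-53725106, 86092 bases beyond Il13 and overlapping the opposite-strand gene Gm12214. RefSeq promoters, 250 bases before and 50 from the start site on, were at hand for 8 of the 10 genes, and not for Arg1 and Ccl24. Those of Il4, Il13 and Retnla are shown because they belong to the pair of neighboring genes found together in basophil-like cells and to a response gene found outside them. Each runs 5′ to 3′ on the strand of its gene in GRCm38.p6; Il4 (second of 2 listed start sites) spans chr11:53618616-53618915, Il13 chr11:53634653-53634952 and Retnla, on the plus strand, chr16:48842359-48842658.
Il4: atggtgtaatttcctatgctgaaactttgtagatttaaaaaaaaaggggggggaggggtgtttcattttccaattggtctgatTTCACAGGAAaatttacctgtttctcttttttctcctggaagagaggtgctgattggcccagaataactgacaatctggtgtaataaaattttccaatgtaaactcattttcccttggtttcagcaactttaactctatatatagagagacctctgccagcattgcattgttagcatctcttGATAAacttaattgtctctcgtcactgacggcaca
Il13: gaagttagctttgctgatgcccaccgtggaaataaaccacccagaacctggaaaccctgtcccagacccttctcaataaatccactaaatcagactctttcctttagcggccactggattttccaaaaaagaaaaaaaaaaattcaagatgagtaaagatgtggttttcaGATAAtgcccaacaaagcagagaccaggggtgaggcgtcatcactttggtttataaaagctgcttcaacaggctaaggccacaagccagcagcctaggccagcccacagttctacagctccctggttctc
Retnla: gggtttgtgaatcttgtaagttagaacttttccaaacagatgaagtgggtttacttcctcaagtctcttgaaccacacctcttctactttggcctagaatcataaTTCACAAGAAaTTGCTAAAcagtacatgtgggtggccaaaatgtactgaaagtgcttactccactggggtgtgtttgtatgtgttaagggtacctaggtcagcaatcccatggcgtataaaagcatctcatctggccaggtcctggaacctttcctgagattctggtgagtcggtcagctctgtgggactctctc
Capitals mark letters that match the STAT6 pattern (TTC and GAA with 4 bases of any kind between them) or the GATA-factor pattern GATAA on either strand, and in Retnla also the C/EBP pattern TTGCNNAA, with no overlap between the matches shown. A C/EBP match in Il4 at -48 to -41 is left in lower case. With the base of the start site as 0, the STAT6 pattern lay at -167 to -158 in Il4 and at -145 to -136 in Retnla, 1 base from a C/EBP match at -134 to -127. The GATA pattern lay at 15 to 19 in Il4 and at -80 to -76 in Il13. Of 32851 promoters of this length, 6.95% held the STAT6 pattern, 25.4% the GATA pattern and 10.8% the C/EBP pattern, so such matches are common and are given as description. The first listed start site of Il4 held none of these patterns in its 300 bases.

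Depth and cell classes were as follows. The table held 58624795 UMIs (unique molecular identifiers, each counting 1 captured transcript) in 20351 cells, with a median of 1960 UMIs per cell and a range of 500 to 46658. Of 19488 cells kept after filters, 14269 (73.2%) were placed in 23 classes by the number of marker genes they held, and 5219 (26.8%) stayed ungated. Classes are called X-like because they rest on a few markers. Levels are the UMIs of a gene scaled to 1000000 UMIs of the class (CPM) with exact Poisson 95% intervals. All intervals cover counting error only, not the spread between cells or between mice. They are too narrow where a few cells hold most UMIs of a gene. Orders of levels leave out the ciliated or club class, which held 3 cells. Where a gene had 0 UMIs, the level that 3 UMIs would give is printed as the limit. In a mixture of dissociated cells, RNA released by other cells also gives UMIs, so shares are set beside B cell-like cells, which have a similar depth (median 1378.5 UMIs, against 1511.5 in basophil-like cells).

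**Figure D1:**
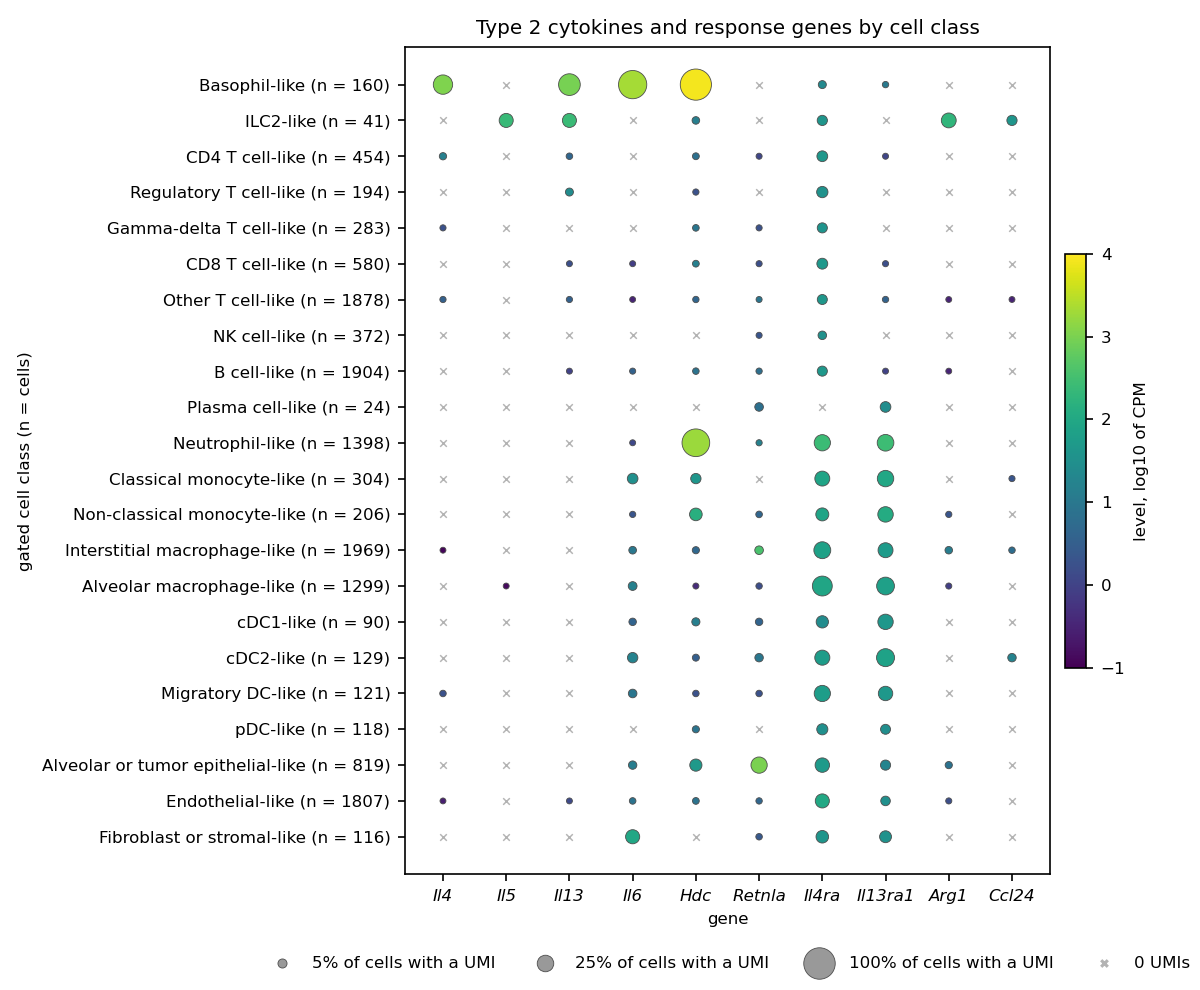
Each dot gives the level of a gene (color, log10 of CPM) and the share of cells with at least 1 UMI of it (size, not adjusted for depth) in the 22 classes of at least 20 cells; crosses mark 0 UMIs. The basophil-like row carries Il4, Il13, Il6 and Hdc, the ILC2-like row Il5, Il13 and Arg1, and the receptor chains spread over many rows.

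Basophil-like cells had the highest level of 4 of the 10 transcripts among the gated classes. They were 160 cells, 0.821% of those kept, yet they held 82.9% of all Il4 UMIs, 64.2% of Il13, 49.7% of Il6 and 32.3% of Hdc. Their identity rested on 8 markers of which a cell held a median of 5, led by Mcpt8, a basophil protease, at 3486 CPM against 0.0514 in all other gated cells. Mast cells, which also make Il4, Il13 and Hdc, were absent as a class, since no cell passed their gate. In the basophil-like cells the mast cell proteases Tpsb2 and Tpsab1 had 0 UMIs, as did the receptor Mrgprb1, while Cma1 had 12 UMIs in 2 cells, Mcpt4 2 UMIs in 1 cell and Kit 15 UMIs in 3 cells. Cpa3, a granule carboxypeptidase that mast cells also express, went the other way, with 318 UMIs in 108 cells (1184 CPM). The study described a rare population of putative mast cells in its data of all tumor cells. Whether those cells are the basophil-like cells was not tested. TdTomato, the reporter of Cre-recombined cells, was found in 23.1% of the basophil-like cells, at 160 CPM. Whether it was RNA of other cells was not tested. The eosinophil granule genes Prg2 and Epx had 0 UMIs in the basophil-like cells. A gene was counted as raised at 4 or more times the level in all other gated cells, with 10 or more UMIs. In basophil-like cells 4 of 10 members were raised, where 1.57% of 15437 tested genes were. The median log2 ratio was -0.15 for the members and -0.29 for all tested genes. The members were chosen with earlier results of these data known, so here and in the other classes such counts are description, not a test.

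Il4, the cytokine that drives Th2 differentiation and IgE switching, had 357 UMIs in 93 cells. Its level was 1103 CPM (95% interval 980 to 1236) in basophil-like cells, from 296 UMIs. CD4 T cell-like cells came next at 14.2 CPM (7.56 to 24.3; 13 UMIs in 9 cells), 77.6-fold lower (interval of the ratio 44.7 to 148), and other T cell-like cells followed at 3.39 CPM (1.69 to 6.07). The intervals of these 3 levels did not overlap. A single UMI each was found in interstitial macrophage-like, endothelial-like, gamma-delta T cell-like and migratory DC-like cells, and 16 of 23 classes had none. Among 1904 B cell-like cells 0 held Il4, which allows a level of up to 0.971 CPM and a share of cells with a UMI of up to 0.158%, not a limit on cells that express the gene. In basophil-like cells the share with Il4 was 35.6% unthinned and 28.0% (21.0 to 35.9) after each cell was thinned to 1000 UMIs, which 150 of the 160 cells reached.

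Il4 transcripts were unevenly spread over the basophil-like cells. There were 103 cells with no Il4 UMI, 22 with 1, 15 with 2 to 4 and 20 with 5 or more, and the highest cell had 35. Just 8 cells (5% of the class) together held at least 50% of its Il4. Cells with Il4 were somewhat deeper than those without, with median totals of 1638 and 1416 UMIs. The part of depth in this split was not tested.

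Il13, which acts on airway epithelium, smooth muscle and macrophages, had 402 UMIs in 141 cells and showed a second source. Basophil-like cells stood at 961 CPM (847 to 1086; 258 UMIs in 73 cells) and ILC2-like cells at 245 CPM (145 to 387; 18 UMIs in 7 cells), a 3.93-fold difference (2.44 to 6.73). Regulatory T cell-like cells followed at 25.5 CPM (14.0 to 42.8), but 8 of their 14 UMIs came from 1 cell. CD4 T cell-like cells (4.37 CPM, 1.19 to 11.2) and other T cell-like cells (3.39 CPM, 1.69 to 6.07) could not be ordered, and B cell-like cells stood at 0.971 CPM with 3 UMIs. No Il13 UMI was seen in neutrophil-like, monocyte-like, macrophage-like or epithelial-like cells, where the limit was 0.347 CPM for interstitial macrophage-like cells. Il13 was less concentrated than Il4, with 16 basophil-like cells holding at least 50% of it.

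Il6, a pleiotropic cytokine of acute inflammation, was present in most basophil-like cells: 128 of 160 (80.0% unthinned, 75.3% after thinning, 67.6 to 82.0). The level was 2082 CPM (1913 to 2262). Fibroblast or stromal-like cells came next at 96.6 CPM (69.0 to 131), 21.6-fold lower (15.6 to 30.5), and classical monocyte-like cells at 31.4 CPM (21.2 to 44.8), a further 3.08-fold step (1.87 to 5.12). The cDC2-like (17.3 CPM), alveolar macrophage-like (14.9), epithelial-like (12.6), interstitial macrophage-like (9.82) and endothelial-like (8.17) cells then ran together, with intervals that overlapped from each to the next. B cell-like cells, 0.315% of which held an Il6 UMI, were at 3.56 CPM. CD4, regulatory and gamma-delta T cell-like cells and NK cell-like cells had none.

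Hdc, histidine decarboxylase, had 6695 UMIs and 2 abundant sources. Basophil-like cells had 8045 CPM (7710 to 8392), with Hdc in 157 of 160 cells, and neutrophil-like cells had 1767 CPM (1703 to 1832), with Hdc in 1071 of 1398. The ratio of levels was 4.55 (4.30 to 4.82). Because neutrophil-like cells were many, they held 43.5% of all Hdc UMIs, more than the basophil-like cells. Per cell the means were 13.5 UMIs in basophil-like and 2.09 in neutrophil-like cells, whose median total was 904.5 UMIs. Non-classical monocyte-like cells stood at 141 CPM (110 to 180), 12.5-fold below the neutrophil-like cells (9.81 to 16.2), then epithelial-like (47.8, 40.8 to 55.6) and classical monocyte-like cells (42.9, 30.8 to 58.1), which overlapped. B cell-like cells were at 8.09 CPM with 0.893% of cells holding a UMI, against 76.6% of neutrophil-like cells (74.0% after thinning). The vesicular transporter that loads histamine into granules, Slc18a2, was raised in basophil-like cells alone among the 5 classes described (223 CPM, 171 to 288; 0.719 in all other gated cells), and in neutrophil-like cells the histamine receptor gene Hrh2 (34.6 CPM) and the histamine-degrading enzyme gene Hnmt (25.5 CPM) were called.

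**Figure D2:**
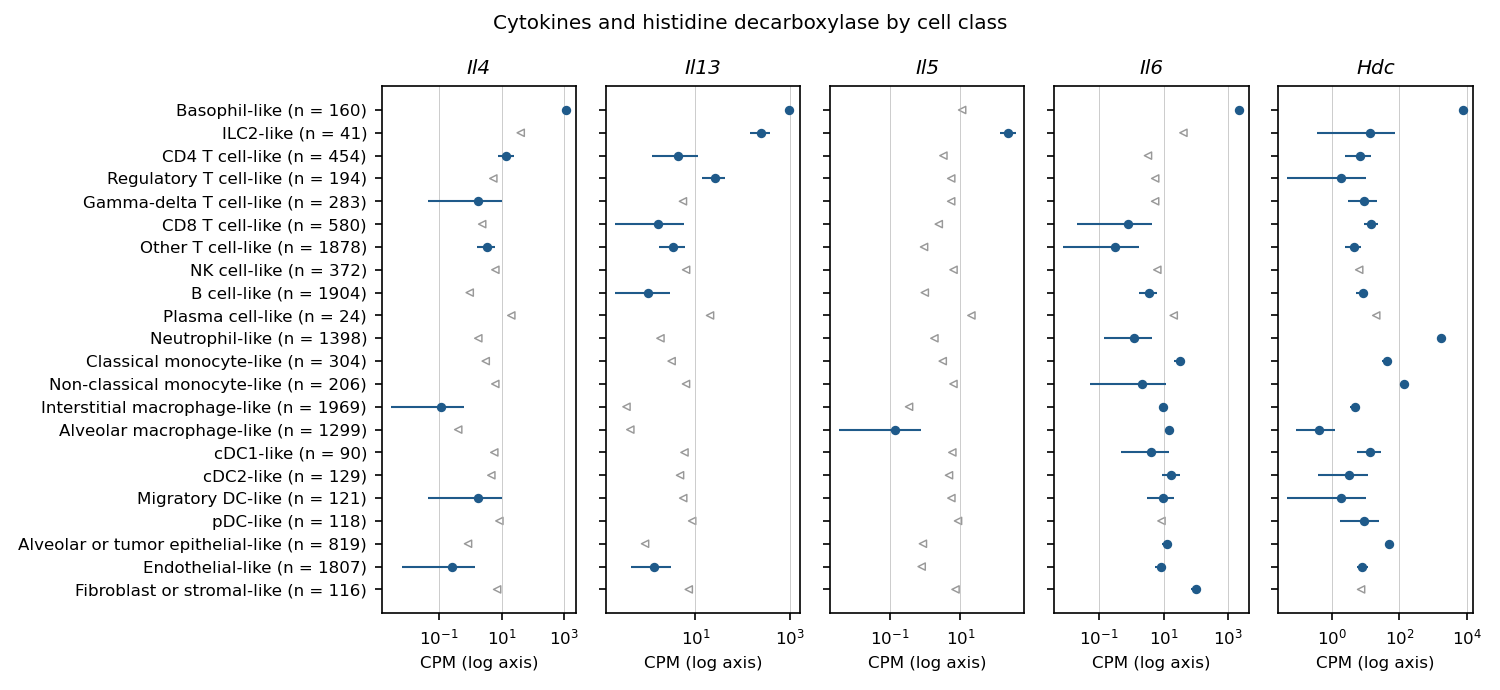
Levels of the cytokine genes and Hdc (CPM, log axis) in the classes of at least 20 cells, with exact Poisson 95% intervals; open triangles give the limit that 3 UMIs set where none was seen. Il4 and Il6 stand highest in basophil-like cells by a wide gap, Il13 has a second high value in ILC2-like cells, Il5 is high in ILC2-like cells alone, and Hdc is high in basophil-like and neutrophil-like cells.

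The 4 transcripts were found in overlapping sets of basophil-like cells. All 4 were detected in 26 cells, 3 in 60, 2 in 58, 1 in 15 and none in 1, and the median total of UMIs rose from 1416 in cells with 1 to 1678 in cells with 4, so depth moved with the number detected. Il13 was detected in 31 of the 57 cells with Il4, at 1375 CPM against 717 CPM in the 103 cells without Il4, a ratio of 1.92 (1.49 to 2.47). Hdc was 1.33-fold higher in the cells with Il4 (1.22 to 1.44). Il6 showed no such difference, with a ratio of 0.873 whose interval (0.729 to 1.04) included equal levels. The 32 cells without Il6 still held Hdc at 7846 CPM. Levels of the basophil proteases Mcpt8 (1635 against 3892 CPM) and Prss34 (248 against 2176 CPM) were lower there than in the 128 cells with Il6. Prss34 was detected in only 4 of the 32 cells and 19 of the 128, so its difference in level rests on few cells. Cpa3, a granule carboxypeptidase, was higher without Il6, at 1842 against 1040 CPM with intervals apart. Gata2 (1449 against 1217 CPM) and Ms4a2, the beta chain of the IgE receptor (973 against 868 CPM), had overlapping intervals.

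Among genes that were no members, those with the most similar pattern over the 20 classes of at least 50 cells (Pearson r of log2(CPM + 10)) also peaked in basophil-like cells. For Il4 they were Cpa3 (r = 0.981), Fosl1 (0.909) and Aqp9 (0.869), for Il13 Cpa3 (0.961), Fosl1 (0.892) and Nt5c3 (0.859), for Il6 Hgf (0.919), Npl (0.898) and Cpa3 (0.873), and for Hdc Padi4 (0.955), Acod1 (0.947) and Il23a (0.898). All classes came from the same pooled libraries, and the correlations rest mostly on 1 or 2 high classes. Of the 15 receptor chain genes listed, 13 could be tested in basophil-like cells, with a median log2 ratio of 0.04. Called were 3, beside 1.57% of all tested genes: Csf2rb (894 CPM), Csf2rb2 (350 CPM) and Il1rl1, the IL-33 receptor (74.5 CPM, 45.5 to 115; 20 UMIs). Il1rl1 was higher in ILC2-like (829 CPM) and regulatory T cell-like cells (257 CPM). The IL-3 receptor alpha chain Il3ra was at 59.6 CPM, 3.48 times the other cells and under the 4-fold call, and Il1rap was at 44.7 CPM, 1.67 times the others. Of 20 tested genes of the alternative activation list, Alox15, Ccl9 and Pdcd1lg2 were called, the last with only 10 UMIs. The median log2 ratio of that list was -1.53. Stat6 was at 29.8 CPM (12.9 to 58.7) and Jak1 at 369 CPM, neither called. Il3 itself had 0 UMIs in all cells.

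Il5, the growth and survival factor of eosinophils, had 39 UMIs in 20 cells. Of its gated UMIs, 17 came from 7 ILC2-like cells, at 231 CPM (135 to 370), or 119 CPM (80.4 to 170) with a gate of 2 markers and a lead of 1, which took in 153 cells. Basophil-like cells had 0 of 160, which allows up to 11.2 CPM and a share of cells with a UMI of up to 1.88%, and among T cell-like classes none had a UMI. The only other gated UMI was in an alveolar macrophage-like cell. Most of the Il5 UMIs, 21, lay in 12 ungated cells, 9 of which had more ILC2 markers than markers of any other class. The most similar genes are not given for Il5, since in the classes of at least 50 cells its pattern rests on that 1 UMI.

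ILC2-like cells were few and close to T cells. There were 41, with a median of 4 of the 8 markers, and 30 were at the minimum of markers or of the lead over the next list, which was most often that of T cells. Il1rl1, Gata3 and Rora were each found in 75.6% of them, but Nmur1, a marker of ILC2 against T cells, was in 1 cell. Of T cell genes, Cd3e had 0 UMIs, Trbc2 was found in 18 cells, Cd3d in 7 and Trac in 3, so T cells in this class cannot be told apart from ILC2 by these counts. When cells were clustered instead of gated, no ILC2 cluster formed. Against 0.434% of tested genes, 3 of 10 members (Il5, Il13 and Arg1) were called in this class. Il5 and Il13 met in 3 of the 41 cells, Il5 and Arg1 in 2, and 25 cells had none of the 3. Il4 and Il6 had 0 UMIs here, with a limit of 40.8 CPM. Of the fixed pathway lists, leaving out markers of the gate such as Gata3 and Il1rl1, Csf2 (136 CPM, 10 UMIs) and the epithelial repair factor Areg (639 CPM, 469 to 849), both of the alarmin and growth factor list, and Maf (272 CPM) were called, while Il9 had 0 UMIs. The median log2 ratio of the alarmin and growth factor list was 1.21, beside -0.18 for all tested genes.

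The receptor chains showed a different distribution from the cytokines. Il4ra was detected in 22 of 23 classes, and neutrophil-like cells had the highest level at 259 CPM (235 to 285), 2.65-fold above endothelial-like cells (98.1 CPM; ratio 2.30 to 3.05). Endothelial-like and alveolar macrophage-like cells (88.5 CPM) did not differ beyond counting error (ratio 1.11, 0.973 to 1.26), and non-classical (82.3, 58.5 to 112) and classical monocyte-like cells (81.5) overlapped with both. Interstitial macrophage-like cells (72.8, 67.2 to 78.7) overlapped with the monocyte-like cells and lay below the interval of alveolar macrophage-like cells (81.7 to 95.6). Epithelial-like (49.8), CD8 T cell-like (46.8), B cell-like (45.9), CD4 T cell-like (44.8) and other T cell-like cells (44.1) formed a lower group whose intervals overlapped. The main source of Il4 had one of the lowest levels of this chain: basophil-like cells were at 22.3 CPM (8.20 to 48.6) from 6 UMIs, below the B cell-like cells by a ratio of 2.06 whose interval (0.921 to 5.70) included 1. Per cell, alveolar macrophage-like cells had the most Il4ra, 0.489 UMIs against 0.306 in neutrophil-like cells, which had fewer UMIs in all. Il4ra overlaps the opposite-strand gene Gm44876 at its locus.

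Il13ra1, which completes the receptor shared by IL-4 and IL-13, was also highest in neutrophil-like cells, at 269 CPM (245 to 295). It was called there together with Hdc, 2 of 10 members, where 3.67% of tested genes were called, and Il4ra missed the 4-fold call at 3.92. Non-classical (116 CPM, 87.4 to 151) and classical monocyte-like cells (95.1, 76.6 to 117) came next and did not differ beyond counting error (ratio 1.22, 0.857 to 1.72). They were followed by cDC2-like (75.7), alveolar macrophage-like (65.3) and interstitial macrophage-like cells (52.2). Per cell, cDC2-like (0.372 UMIs) and alveolar macrophage-like cells (0.361) had more Il13ra1 than neutrophil-like cells (0.318), which had fewer UMIs in all. In T, NK and B cell-like classes Il13ra1 was down to a few UMIs: 3.70 CPM in other T cell-like, 1.61 in CD8 T cell-like, 1.09 in CD4 T cell-like and 0.971 in B cell-like cells, with 0 UMIs in regulatory and gamma-delta T cell-like and NK cell-like cells. Basophil-like cells had 3 UMIs, all in 1 cell. Neutrophil-like cells with Il13ra1 also held more RNA of other cell types, such as 31 Epcam and 55 Sftpa1 UMIs in 356 cells against 13 and 29 in the 1042 without it; the part of this in the level was not tested.

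The 2 chains could be set against each other within each class, as the share of Il4ra in the UMIs of both, to be read across classes and not as a level of one gene against the other. It was 97.9% (94.1 to 99.6) in B cell-like, 96.7% (88.5 to 99.6) in CD8 T cell-like and 97.6% (87.4 to 99.9) in CD4 T cell-like cells. It fell to 49.1% (45.7 to 52.5) in neutrophil-like, 46.2% (38.5 to 54.0) in classical monocyte-like, 57.5% (54.5 to 60.5) in alveolar macrophage-like and 36.1% (20.8 to 53.8) in cDC1-like cells. Endothelial-like (76.2%, 72.2 to 79.9) and epithelial-like cells (73.4%, 67.3 to 78.9) lay between the lymphoid and myeloid values, and the intervals of the 3 sets named here did not overlap. The common gamma chain Il2rg was at 46.1 CPM in neutrophil-like cells, 0.390 times the other gated cells, and reached 385 CPM in regulatory T cell-like and 381 CPM in ILC2-like cells. Stat6 was highest in neutrophil-like cells (138 CPM, 120 to 157) and next in non-classical monocyte-like cells (118 CPM), and Jak1 in neutrophil-like cells was at 449 CPM; neither was called. Of 13 tested genes of the receptor chain list, Il6ra (233 CPM), Il1rap (312 CPM) and Hrh2 were called in neutrophil-like cells, where 3.67% of all tested genes were. The median log2 ratio was 0.10 for the list and -0.23 for all tested genes. The decoy receptor gene Il13ra2 had 0 UMIs in all cells. The genes closest in pattern were Sema6b (r = 0.904) and Fbxl5 (0.866) for Il4ra, and Atp7a (0.959), Tnfaip2 (0.930) and Cd14 (0.917) for Il13ra1, over 20 classes; all 5 peaked in neutrophil-like cells.

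**Figure D3:**
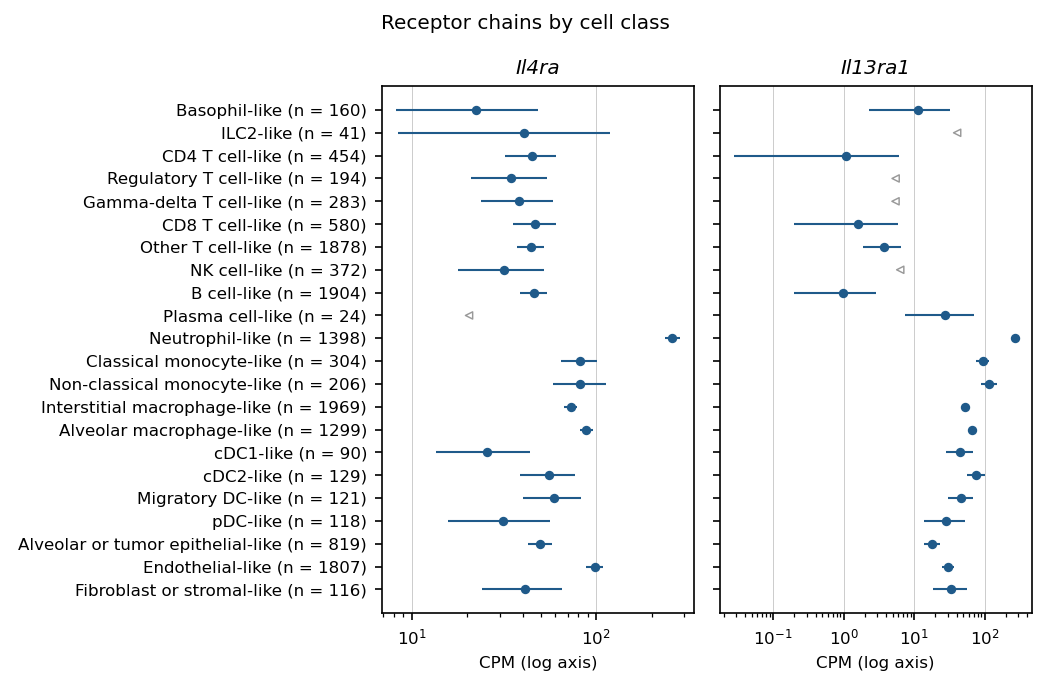
Levels of the receptor chains (CPM, log axis) by class, with exact Poisson 95% intervals and triangles for the limit at 0 UMIs. Il4ra varies little beside Il13ra1, which has 0 to 12 UMIs in each of the T, NK and B cell-like classes and shares its peak in neutrophil-like cells with Il4ra.

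Retnla, which encodes the secreted protein RELM-alpha (also called FIZZ1), had 7976 UMIs in 411 cells. It came from epithelial-like and interstitial macrophage-like cells, which held 44.0% and 40.5% of it, and not from the alveolar macrophage-like cells (1.53 CPM, 0.765 to 2.74). The epithelial-like share was 29.3% (738 cells) with mixed cells, which hold several markers of a second class, left ungated. That of interstitial macrophage-like cells was not computed in this setting. The level of Retnla was 1004 CPM (971 to 1037) in the 819 alveolar or tumor epithelial-like cells. In the 1969 interstitial macrophage-like cells it was 374 CPM (361 to 387), a ratio of 2.69 (2.56 to 2.82). Neutrophil-like cells were at 16.4 CPM, B cell-like cells at 6.47 CPM and basophil-like cells at 0 UMIs (limit 11.2 CPM). The 3 cells of the ciliated or club class held 42 UMIs, 41 of them in 1 cell. Retnla belongs to a family of similar genes, of which Retnlg reached 9138 CPM in neutrophil-like cells; reads shared between them would be uncertain. It was the 1 member of 10 called in epithelial-like cells, where 8.34% of tested genes were, and its fold over other cells in interstitial macrophage-like cells, 3.11, fell short of the call.

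In the epithelial-like class, Retnla was detected in 197 of 819 cells (24.1% unthinned, 12.5% after thinning), against 0.525% of B cell-like cells unthinned and 0.372% thinned. A few cells dominated: 7 cells held at least 50% of the UMIs of the class, and the highest held 636, or 18.1%. Scgb1a1, the club cell secretory protein gene, moved with it. The 4 cells with 20 or more Scgb1a1 UMIs had 797 Retnla UMIs, all in 3 of them, and surfactant Sftpc in 1 of them. Without any cell that held a Scgb1a1 UMI, 767 cells were left at 722 CPM of Retnla (693 to 752), with 178 cells positive and 65.4% of the UMIs of the class. In those 767 cells Sftpc, the alveolar type II surfactant gene, was at 96983 CPM and TdTomato, the reporter of Cre-recombined cells, was found in 98.7%. Both values are of all 767 cells, most of them without Retnla, and were not taken for the 178 positive cells alone. The most similar genes over the 20 classes were Cbr2 (r = 0.874), Etv5 (0.860) and C6 (0.859), all highest in epithelial-like cells.

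In the interstitial macrophage-like class, Retnla was carried by a minority. Of the 1969 cells, 1887 had no UMI, 24 had 1, 11 had 2 to 4 and 47 had 5 or more; these 47 cells held 3176 of the 3234 UMIs, at 14031 CPM (13547 to 14527), and 8 cells held at least 50%. Their C1qa, a complement gene that marks the class, was at 4908 CPM beside 3927 CPM in the cells without Retnla, and Sftpc was 44.2 against 83.2 CPM and Scgb1a1 had 1 UMI in the 47 cells. The 35 cells with 1 to 4 Retnla UMIs did carry more epithelial RNA, with Sftpc at 367 CPM and 134 Scgb1a1 UMIs in 2 cells; its part in their Retnla was not tested. In the 47 cells against those without Retnla, Fn1, fibronectin, was 1038 against 160 CPM and F13a1 146 against 19.9 CPM. Ccr2, a receptor of monocyte-derived cells, was 654 against 238 CPM, and Mrc1, the mannose receptor, 543 against 226 CPM. Folr2 (92.8 against 13.3 CPM) and Cd163 (57.4 against 5.21 CPM) were higher as well. The intervals of Spp1 (92.8 and 95.3 CPM) and Lyve1 (4.42 and 1.94 CPM) overlapped. The origin of these cells was not tested. The cDC2 marker Cd209a was also higher (48.6 against 6.42 CPM). Among the members, Il6 was 70.7 CPM (40.4 to 115) against 7.63 CPM (5.86 to 9.76). Il4ra was 128 CPM (85.8 to 184) against 70.2 CPM (64.6 to 76.2), while the intervals of Il13ra1 (44.2 and 53.2 CPM) overlapped. The genes shown in this paragraph beside the members were chosen after values had been seen.

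**Figure D4:**
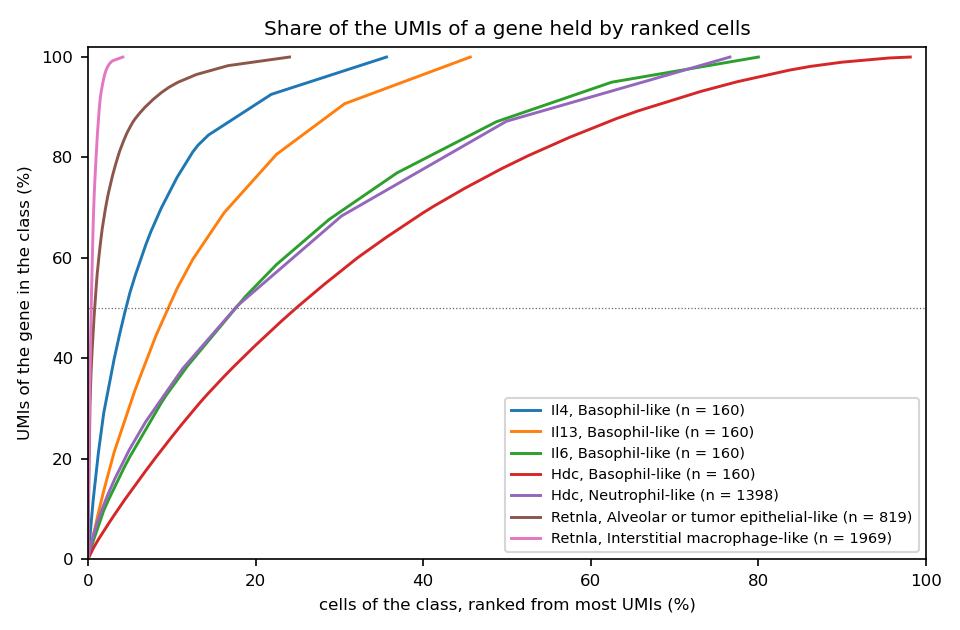
Cells of a class were ranked from most to fewest UMIs of a gene (x axis, percent of cells), and the y axis gives the cumulative percent of its UMIs; the dotted line is 50%. Retnla in both classes climbs within the first few percent of cells, Il4 and Il13 climb over a wider share of basophil-like cells, and Hdc in basophil-like cells is the most evenly spread of the lines drawn.

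Arg1, arginase 1, which consumes arginine, was scarce. It had 204 UMIs in 108 cells. ILC2-like cells had the highest level, 190 CPM (104 to 319; 14 UMIs in 8 of 41 cells; 107 CPM with the looser gate of 153 cells), 15.2-fold above interstitial macrophage-like cells (12.5 CPM, 10.2 to 15.1; ratio 8.06 to 26.7). By number of UMIs, interstitial macrophage-like cells were first with 108, or 52.9%, in 46 cells. Epithelial-like cells stood at 7.72 CPM (5.09 to 11.2), below the interstitial macrophage-like cells by a ratio of 1.62 (1.05 to 2.56), and alveolar macrophage-like cells at 0.836 CPM. Classical monocyte-like, neutrophil-like and basophil-like cells had 0 UMIs, with limits of 3.14, 1.82 and 11.2 CPM. The other arginase gene, Arg2, was called in neutrophil-like cells instead (441 CPM, 409 to 474; 11.3 in all other gated cells). The genes closest to Arg1 over the 20 classes, which leave out the ILC2-like cells, were Abcc3 (r = 0.864), Prcd (0.821) and Scamp5 (0.788).

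Ccl24, eotaxin-2, which attracts eosinophils, had 106 UMIs in 38 cells. Interstitial macrophage-like cells held 51 of these UMIs in 16 cells (5.89 CPM, 4.39 to 7.75), and 2 cells held at least 50% of them. The level was higher in cDC2-like cells, at 17.3 CPM (8.66 to 31.0), but from 11 UMIs in 5 cells, a ratio of 2.94 (1.38 to 5.72). It was 10.2 CPM with the looser gate (265 cells). In a cluster of 1480 cells, named cDC2 by only 3 raised markers, it was 7.22 CPM. That cluster was far larger than the gated class and held 50.9% of all Ccl24 UMIs. ILC2-like cells had 3 UMIs (40.8 CPM), with an interval of 8.41 to 119 that held the cDC2-like value and lay above the interval of interstitial macrophage-like cells. Of the 129 cDC2-like cells 83 lay near the limit of their gate, and their most frequent second list was that of interstitial macrophages. The 5 with Ccl24 were deeper than the rest, with median totals of 7775 and 4348 UMIs. In 18 of 23 classes Ccl24 had 0 UMIs, the alveolar macrophage-like cells included (limit 0.418 CPM). No eosinophil was gated. The genes closest in pattern were Ngfr (r = 0.966), Hr (0.913) and Rtl5 (0.840).

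The 3 response genes were found in part in the same macrophages. Arg1 and Ccl24 were the 2 of 10 members called in interstitial macrophage-like cells, where 2.09% of tested genes were. The 46 cells with Arg1 had Retnla at 3091 CPM against 297 CPM in the other 1923, a ratio of 10.4 (9.58 to 11.3), and 13 of the 46 held it against 69 of the rest. Ccl24 was at 71.4 CPM in the cells with Arg1 and at 4.04 CPM in the rest. As only 2 cells held both, no interval is given and no association can be read from it. In the 16 cells with Ccl24, Retnla was at 13614 CPM, from 6 cells that held both. Fn1 was at 1579 CPM in the cells with Arg1 against 144 CPM without, and at 1578 CPM in those with Ccl24 against 173 CPM. Cells with Arg1 were somewhat deeper (median totals of 4834 UMIs with it and 4216 without). The cells are not replicates, so these ratios describe the pooled sample. Of the alternative activation list, 20 genes could be tested and 3 were called in this class, Ccl17 (1769 CPM), Ccl8 (186 CPM) and Cd163 (6.93 CPM), and of the receptor chains the histamine receptor gene Hrh1 (4.97 CPM). The median log2 ratio of that list to the other gated cells was -0.16, beside -0.11 for all tested genes. Chil3 and Mrc1, both commonly counted with Retnla, were instead highest in alveolar macrophage-like cells, at 24741 and 1007 CPM.

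**Figure D5:**
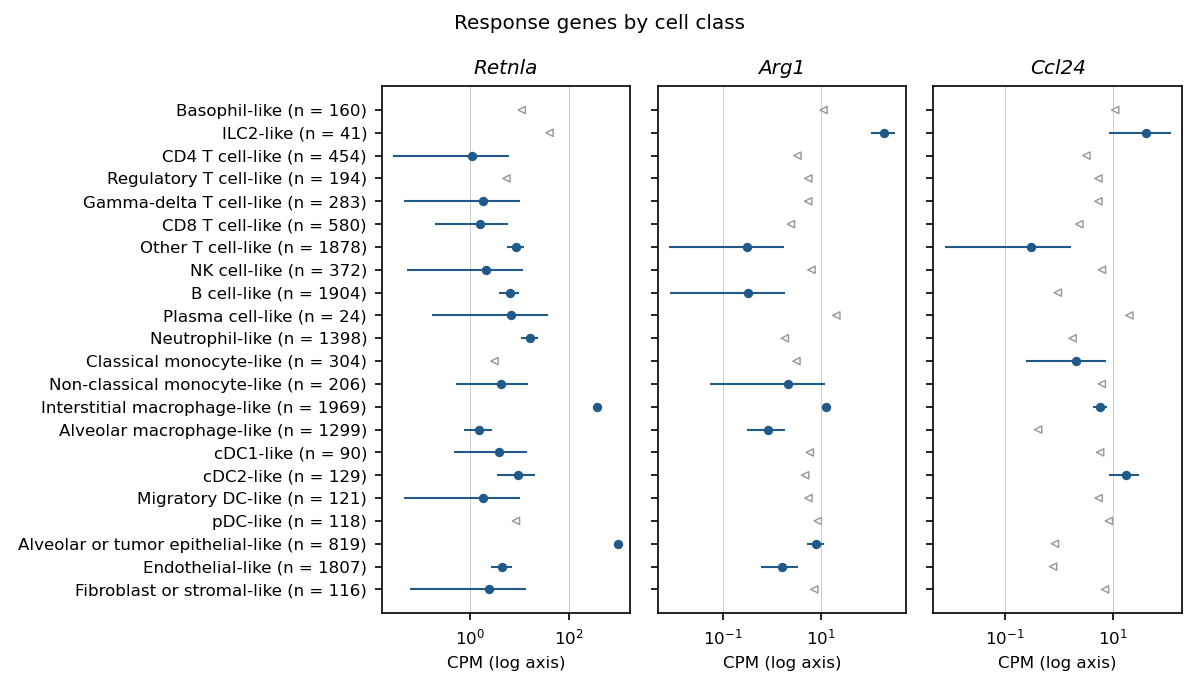
Levels of Retnla, Arg1 and Ccl24 (CPM, log axis) by class, with exact Poisson 95% intervals and triangles for the limit at 0 UMIs. Retnla peaks in epithelial-like and interstitial macrophage-like cells, Arg1 in ILC2-like and then interstitial macrophage-like cells, and Ccl24 rests on few UMIs in 5 classes.

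Upstream of these genes, epithelial-like cells had 4 of the 6 tested genes of the alarmin and growth factor list called: Il33 (166 CPM, 152 to 180; 1.32 in all other gated cells), Areg (731 CPM), Csf2 (17.7 CPM) and Il7 (6.29 CPM). Of all tested genes, 8.34% were called in this class. The median log2 ratio of the list was 0.91, beside -0.07 for all tested genes. Il25 had 0 UMIs in all cells, and Tslp, the third epithelial alarmin, had 40 UMIs in all. Of the epithelial response list, 3 of 8 genes could be tested and Muc5b alone was called (6.58 CPM), while the goblet cell genes Clca1 and Spdef and the chemokine gene Ccl26 had 0 UMIs. Of 10 tested genes of the histamine and arginine list, Maob, Hnmt and Oat were called. Leaving out the gate markers Gata2 and Gata3, signaling and transcription factor genes of the list gave no call in epithelial-like, neutrophil-like, interstitial macrophage-like or basophil-like cells and 1 in ILC2-like cells.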

How the data were processed

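Viable cells of 2 Restored and 2 Non-Restored mice were profiled by droplet-based 3′ single-cell RNA-seq (v3 chemistry, target of 8000 cells per mouse). Raw UMI counts per gene and cell were deposited by the authors as 1 joined matrix, made in Cell Ranger (3.0.2 per the file header) on mm10, to which the sequences of GFP and TdTomato had been added. The sources used here do not say whether libraries were thinned to equal depth. Cells carried no label of a mouse, and 0 columns of another sample were present, so cell barcodes shared between libraries could not be counted. The cell filter of the study had not been applied to the deposited counts, since 52 cells had under 200 genes.

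Cells with at least 200 genes and at most the 98th percentile of genes (2713) and of mitochondrial share (13.4%) were kept. A cell took the class with most distinct markers detected, out of 22 lists, if it held at least 3 and at least 2 more than of any other list; T cells were then split by Foxp3, Trdc or Tcrg-C1, Cd8a or Cd8b1, and Cd4. No member was a marker. Doublets and tdTomato-positive cells outside the epithelium were kept in the main setting, unlike in the study for the latter. With an expected rate of 6%, 181 of 20299 cells (0.892%) were called doublets by Scrublet in scanpy 1.11.5, which does not model pooled libraries.

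UMIs were summed per class. CPM have exact Poisson, shares exact Clopper-Pearson and ratios exact conditional binomial 95% intervals, for counting error only. Cells were thinned to 1000 UMIs for shares. A gene with at least 10 UMIs in gated cells was tested by fold alone, and called at 4-fold and 10 UMIs. Named were all members, called genes of 6 pathway lists with receptor chains and JAK/STAT genes, and the 3 genes most like each member among genes of at least 100 UMIs. The highest class had to hold 20 cells and 10 UMIs, a rule set after values were seen, like the genes compared within a class. Members and lists were chosen with earlier results of these data known. The calls and ratios were run on simulated Poisson counts for basophil-like cells, with changes only in well-detected genes. These counts held no spread between cells. The run therefore cannot check scarce genes or genes held by a few cells. Promoters came from RefSeq (GRCm38.p6), and AP-1 (TGANTCA, in 7.81% of promoters) was searched too. Python 3.11.15, numpy 2.4.6 and scipy 1.17.1 were used. The comparison of Restored with Non-Restored mice was not run. One allele shared by all mice and one gene that the likeness rule named are not reported here.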

Additional observations from a re-analysis of the deposited data

How the results depend on the processing

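The levels of the 10 genes in their highest class were recomputed under 8 alternatives, and 70 of 78 values stayed within the main interval; no ILC2 cluster formed, which left 2 without a value. With a looser gate (2 markers, lead of 1) Il5 in ILC2-like cells was 119 CPM in 153 cells. With mixed cells left out, Il4 was 1260 and Hdc 8602 CPM in basophil-like cells, Retnla 778 CPM in epithelial-like cells and Il4ra 287 CPM in neutrophil-like cells. With clusters in place of gates, Retnla was 893, Il13ra1 235 and Ccl24 7.22 CPM, the last in a cDC2 cluster of 1480 cells. Without epithelial-like cells holding Scgb1a1, an alternative added after the data were seen, Retnla was 722 CPM. The cause of these shifts was not tested. The highest class with at least 10 UMIs was another in 6 of 80 cases. In 3 of them the former class only fell under 10 UMIs and kept the higher level: Ccl24 in cDC2-like cells without mixed cells (11.9 against 2.12 CPM in interstitial macrophage-like cells) or without tdTomato-positive cells (14.7 against 6.07 CPM), and Arg1 in ILC2-like cells under the stricter gate (169 against 12.5 CPM). By clusters, Ccl24 was highest in classical monocytes (10.2 CPM), Arg1 in interstitial macrophages (24.3 CPM) and Il5 in other T cells (7.46 CPM). Shares of UMIs moved in 33 of 78 and shares of cells in 16 of 30 values. At 2-fold and 8-fold in place of 4-fold, the genes called were 546 and 106 in basophil-like, 193 and 30 in ILC2-like, 859 and 156 in interstitial macrophage-like, 1273 and 263 in neutrophil-like cells, and 2235 at 2-fold in epithelial-like cells. No paired analysis was possible because the columns of the matrix carry no replicate or mouse, and no mouse could be left out. Counting depth limits Il5, Arg1 and Ccl24 most.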

Other observations

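Among the T cell-like classes, 19 cells held Il4 and 19 held Il13, and the genes set beside them were chosen after values had been seen. T cells with Il4 had the type 2 transcription factor gene Gata3 at 450 CPM against 98.3 CPM in those without (4.58-fold, 2.81 to 7.06), the IL-33 receptor gene Il1rl1 at 214 against 42.3 CPM, and the CD40 ligand gene Cd40lg at 236 against 42.9 CPM (5.49-fold, 2.71 to 9.98). The follicular helper cytokine gene Il21 had 2 UMIs in them (42.9 against 3.26 CPM), while Foxp3, Cxcr5 and Bcl6 had 0, with intervals of the ratio that included equal levels. T cells with Il13 also had more Gata3 (402 CPM, 4.10-fold, 2.61 to 6.16) and Il1rl1 (268 against 41.5 CPM). Cd40lg had 0 UMIs in them, with an interval of the ratio (0 to 1.39) that included equal levels. Foxp3 (184 against 46.4 CPM), Areg (419 against 88.5 CPM) and the inhibitory receptor gene Pdcd1 (301 against 44.1 CPM) were higher. These counts rest on a few cells, and the difference between both sets was not tested.

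Ungated cells held 53.8% of Il5, 35.8% of Ccl24, 27.1% of Il13ra1, 24.8% of Il4ra, 21.6% of Il13 and 9.24% of Il4 UMIs. Of the 87 ungated Il13 UMIs, 52 lay in 18 cells with more ILC2 markers than markers of another class and 15 in 8 cells led by basophil markers. Of the 40 ungated Arg1 UMIs, 14 lay in 10 cells led by ILC2 markers. Of the 38 ungated Ccl24 UMIs, 20 lay in 6 cells led by interstitial macrophage markers, and 11 in 1 cell led by T cell markers.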
